A study of Mus musculus with 4 samples.

Results

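The E proteins Tcf3, Tcf12 and Tcf4 and the inhibitors Id1, Id2 and Id3 were examined for dimethylation of histone H3 at lysine 79 (H3K79me2). The 6 genes were chosen by name out of 21887 protein-coding genes measured, with earlier results of these data known. All 6 were covered by H3K79me2 peaks over at least 50% of their gene body in thymocytes grown with an SCD1 inhibitor, against 26.1% of all coding genes. In the vehicle control this held for 2, Tcf12 and Id2, against 5.47% of all coding genes. The cells were mouse double-negative thymocytes at the DN3 stage, derived in vitro from haematopoietic stem cells of strain C57BL/6. They shared a feeder line that presents a Notch ligand, OP9-DL1, and the cytokines IL-7 at 2 ng/mL and Flt-3L at 5 ng/mL. The inhibitor group received A939572, which blocks stearoyl-CoA desaturase SCD1, the enzyme that turns stearic into oleic acid, and the control group received DMSO. Each group had 1 ChIP-seq library, and the 2 matching inputs are not analysed here.

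E proteins are basic helix-loop-helix transcription factors that bind E-box sequences as dimers. Id proteins carry the helix-loop-helix but no basic DNA-binding region, so they capture E proteins in dimers that do not bind DNA. In the thymus, the products of Tcf3 (E2A) and Tcf12 (HEB) drive T-lineage genes and hold cells at the pre-T cell receptor checkpoint, and receptor signals raise Id3 to release them. Id2 is best known for directing innate lymphoid fates, Id1 as a target of BMP signals, and Tcf4 (E2-2) for plasmacytoid dendritic cells. H3K79me2 is laid down by DOT1L on genes in transcription, mostly toward their 5′ end.

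The values are the authors' peak calls: the percent of a gene body under peaks, and the width, fold enrichment and −log10 q of each peak, the last 2 of which are means over the peak in the broadPeak format. The inhibitor list held 35018 peaks and the control list 124962, and q was at most 0.05 for 18.6% of the inhibitor peaks and 0.643% of the control peaks. The read depth behind the lists is unknown. With 1 library per condition, no difference below has a replicate check or a p-value. A lower share of marked cells and less of the mark in each cell cannot be told apart. Of 11 markers of DN3 thymocytes, 10 were covered over at least 50% with the inhibitor (26.1% of all coding genes) and 7 with DMSO (5.47%). With the inhibitor 1 of 8 feeder markers, 0 of 7 B cell markers, 2 of 7 myeloid markers and 1 of 6 stem and progenitor markers were covered so far. The myeloid count is near the 26.1% of all coding genes. With DMSO only 1 stem and progenitor marker was, and 0 of the feeder, B cell and myeloid markers. The feeder markers Col1a1, Col3a1, Cxcl12 and Pdgfra had no covered base in either list. By contrast, 2 of the 8 were higher with the inhibitor by at least 25 points, near the 30.1% of all coding genes. Thbs1 was covered over 59.0% with the inhibitor and 11.8% with DMSO, and Pdgfrb over 45.3% with the inhibitor and 9.18% with DMSO. From peaks at q of 0.05 or below these were 45.1% for Thbs1 and 44.2% for Pdgfrb with the inhibitor, and 0% for both with DMSO. The B cell markers Cd79a and Vpreb1 had no covered base in either list, and Igll1 (23.2%) and Cd79b (16.4%) had inhibitor coverage, from peaks with q above 0.05, and no control coverage. The 2 myeloid markers covered with the inhibitor were Cd68 (100%) and Fcer1g (84.5%), from peaks at q of 0.05 or below. Both had no control coverage. Among the other myeloid markers Itgam had the most inhibitor coverage (2.62%), and it had 9.39% control coverage. Elane (23.8%), Mpo (15.6%) and Lyz2 (9.30%) had control coverage, from peaks with q above 0.05, and no inhibitor coverage. Csf1r was covered over 2.08% with the inhibitor and 0% with DMSO. The median difference over the 7 myeloid markers, inhibitor minus control, was -6.77 points. The part that other cells played in the results was not tested.

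Coverage of at least 50% was found for 6 of 6 genes with the inhibitor, against 26.1% of all coding genes, and for 2 of 6 with DMSO, against 5.47%. In 5 of 6 genes coverage with the inhibitor exceeded that with DMSO by at least 25 percentage points, against 30.1% of all coding genes, and in 0 it was lower by as much, against 3.07%. Of these 5, Tcf12 lay just past the cutoff, at 25.6 points. The median coverage of the 6 genes was 88.5% with the inhibitor and 10.97% with DMSO, and over all coding genes it was 0.446% with the inhibitor and 2.24% with DMSO. Gene length differs within the family. The Id genes span 1.16 to 2.29 kb and the E protein genes 24.4 to 344.5 kb. Among coding genes under 5 kb, 18.1% reached 50% coverage with the inhibitor and 7.45% with DMSO, and among genes of at least 50 kb 24.8% did with the inhibitor and 4.69% with DMSO. No member overlaps another coding gene, and no peak on a member reached into another coding gene.

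Restricted to peaks at q of 0.05 or below, 3 of 6 genes were covered over at least 50% with the inhibitor, against 19.6% of all coding genes. With DMSO 0 were, against 1.33%. The difference was then at least 25 points for 4 genes, against 26.3% of all coding genes. These 4 were Tcf3, Tcf12, Id2 and Id3. In all, 6 of the 41 inhibitor peaks on the members passed that q, on 5 genes, and 1 of the 59 control peaks did, on Tcf12.

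**Figure D1:**
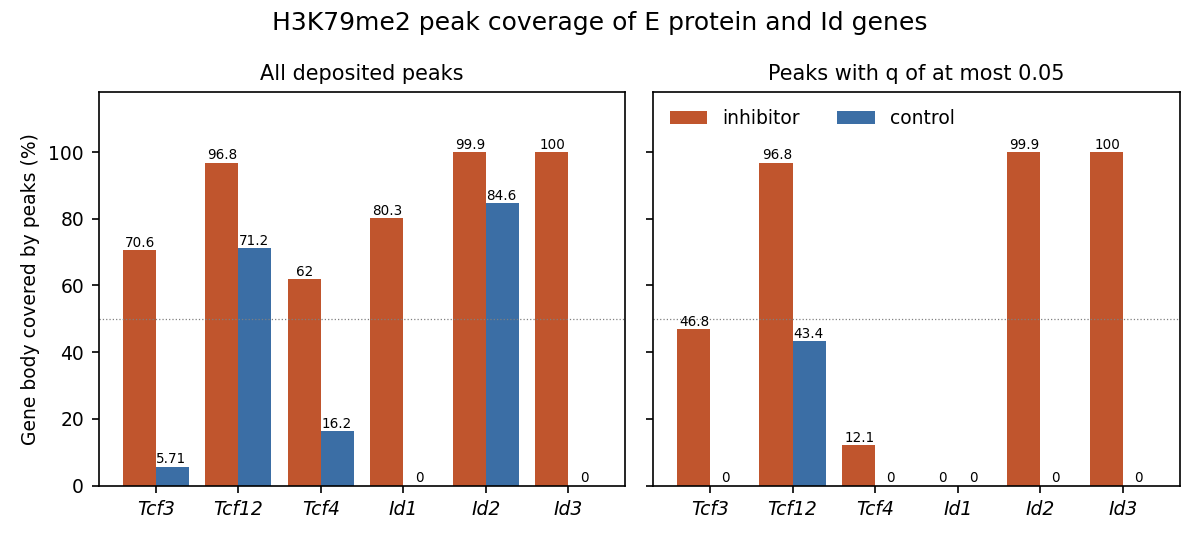
Percent of each gene body under H3K79me2 peaks (vertical axis) in the inhibitor and control lists, for all deposited peaks (left) and for peaks with q of at most 0.05 (right); each bar is 1 library and the dotted line is 50%. With all peaks every gene is higher in the inhibitor list, and at the stricter q only Tcf12 keeps control coverage (43.4%).

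Tcf12, which encodes HEB, was the E protein gene with the most coverage in both conditions. The gene (chromosome 9, 71844252 to 72111893, mm10, minus strand, 267.6 kb) was covered over 96.8% with the inhibitor and 71.2% with DMSO. The inhibitor coverage came from 2 peaks. The one over the gene start spanned 141.9 kb (71972025 to 72113958), with a fold of 5.63 over background and a −log10 q of 21.9, above 99.9% of the peaks in its list. The other spanned 119.2 kb (71846060 to 71965282), with a fold of 3.03 and a −log10 q of 6.07. Between them lay 6.74 kb without an inhibitor peak, and no control peak reached into that gap.

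The control list broke the same gene into 23 peaks. One of these spanned 118.1 kb from the gene start (71995789 to 72113866), with a fold of 2.17 and a −log10 q of 1.40, just past the threshold of q = 0.05. It was wider than 99.996% of control peaks, and its upstream edge lay 1.97 kb before the gene start, close to the 2.07 kb of the inhibitor peak. The other 22 control peaks had q above 0.05 and a median width of 1771 bp, and 15 of the 23 were listed at a −log10 q of 0. Every control-covered base of Tcf12 lay under an inhibitor peak, and 73.6% of the inhibitor-covered bases lay under a control peak. Cut into 10 equal stretches from its start, the gene was covered over 100% in the first 4 in both lists. In the last 5 stretches coverage ran from 74.8% to 100% with the inhibitor and from 22.6% to 64.2% with DMSO. The first 5 kb was covered over 100% in both lists, so the 25.6-point difference lay in the downstream part of the gene.

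RefSeq (GRCm38.p6) lists 3 start windows for Tcf12, 2 at its 5′ end and 1 inside the gene. The internal start at 71896096 lay under the second strongest control peak of the gene (71886438 to 71900529, 14.1 kb), which had a fold of 2.04 and a −log10 q of 0.862, and under the downstream inhibitor peak. Both lists covered the whole of each of the 3 windows. The outermost and the internal window are shown because the 2 strongest control peaks of the gene lie over them. Each runs from 250 bases before the start to 50 after it on the minus strand, 5′ to 3′, with every E-box (CANNTG, which reads as CANNTG on either strand) in capitals.
Tcf12 outermost start, chr9:72111770-72112069: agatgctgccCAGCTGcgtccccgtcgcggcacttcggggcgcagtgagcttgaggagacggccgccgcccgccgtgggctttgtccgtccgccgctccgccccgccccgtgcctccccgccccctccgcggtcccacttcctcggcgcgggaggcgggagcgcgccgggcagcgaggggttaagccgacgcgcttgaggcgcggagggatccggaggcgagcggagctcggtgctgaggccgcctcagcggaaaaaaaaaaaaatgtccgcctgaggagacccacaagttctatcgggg
Tcf12 internal start, chr9:71896047-71896346: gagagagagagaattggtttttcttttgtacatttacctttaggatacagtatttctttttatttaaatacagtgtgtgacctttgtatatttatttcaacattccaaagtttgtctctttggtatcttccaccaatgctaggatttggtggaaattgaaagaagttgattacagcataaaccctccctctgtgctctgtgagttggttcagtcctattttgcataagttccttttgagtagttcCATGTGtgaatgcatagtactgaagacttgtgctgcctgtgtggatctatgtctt
The outermost window was 71.7% G and C and held the E-box CAGCTG. The internal window was 36.3% G and C and held the E-box CATGTG, against a median of 52.7% G and C over 32851 RefSeq start windows. A CANNTG was found in 72.3% of all these windows and CAGCTG in 16.3%, so such a match is common and describes the letters alone.

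Tcf3, which encodes the E2A proteins E12 and E47, had little control coverage. The gene (chromosome 10, 80409541 to 80433976, minus strand, 24.4 kb) was covered over 70.6% with the inhibitor and 5.71% with DMSO. The inhibitor list held 3 peaks there. The one next to the gene start spanned 11.4 kb (80422194 to 80433632), with a fold of 2.98 and a −log10 q of 6.08, above 94.3% of its list. A peak of 2.17 kb further downstream had a −log10 q of 0.110, and the last one, of 3.66 kb, 0.0777. The control list held 1 peak of 1.40 kb (80431513 to 80432907), with a fold of 1.72 and a −log10 q of 0.102, inside the span of the first inhibitor peak. Coverage of the first 5 kb was 93.1% with the inhibitor and 27.9% with DMSO, and the last of 10 equal stretches of the gene had no peak in either list. The strong inhibitor peak began 3 bp inside the RefSeq start site and the control peak 728 bp inside it, although edges of ChIP-seq peaks are not placed to the base. That site, 80433635, lies inside the gene body used for coverage, whose 5′ end is 80433976. From that end the inhibitor peak began 0.344 kb away and the control peak 1.07 kb away. The RefSeq start window of Tcf3 is shown because the inhibitor domain begins within it; the E-box is in capitals and the strand is minus.
Tcf3, chr10:80433586-80433885: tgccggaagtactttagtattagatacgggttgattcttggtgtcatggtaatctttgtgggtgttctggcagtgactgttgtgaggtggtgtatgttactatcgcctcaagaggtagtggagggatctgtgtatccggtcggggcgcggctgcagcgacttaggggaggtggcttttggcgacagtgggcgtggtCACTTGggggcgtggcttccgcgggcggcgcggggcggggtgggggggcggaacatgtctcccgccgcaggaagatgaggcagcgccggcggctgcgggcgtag
Of this window, 47 of 300 bases lay under the inhibitor peak and 0 under a control peak. It held 1 E-box, CACTTG.

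Tcf4 showed another pattern. The gene (chromosome 18, 69343429 to 69687967, 344.5 kb) was covered over 62.0% with the inhibitor and 16.2% with DMSO, in both lists by many separate peaks. There were 33 inhibitor and 34 control peaks. Of the inhibitor peaks, 3 were at least 30 kb wide and supplied 65.0% of the covered length. They spanned 34.6 kb (69344675 to 69379307), 62.4 kb (69380764 to 69443177) and 41.8 kb (69591465 to 69633292). The 41.8 kb peak alone passed q of 0.05, with a fold of 2.28 and a −log10 q of 1.67, and it covered 12.1% of the gene. The 34.6 kb peak had a −log10 q of 1.25 and the 62.4 kb peak 0.639. No control peak on Tcf4 was wider than 5.42 kb, all 34 had a −log10 q of at most 0.0814, and 25 were listed at 0. Of the control-covered bases of Tcf4, 75.2% lay under an inhibitor peak, and of the inhibitor-covered bases 19.7% lay under a control peak. Tcf4 was the only member with bases under control peaks alone, 13.9 kb in all. In the 100 kb on either side of the gene the inhibitor list held 0 peaks, and the control list held 10 on the lower-coordinate side and 8 on the other, none with q of at most 0.05.

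**Figure D2:**
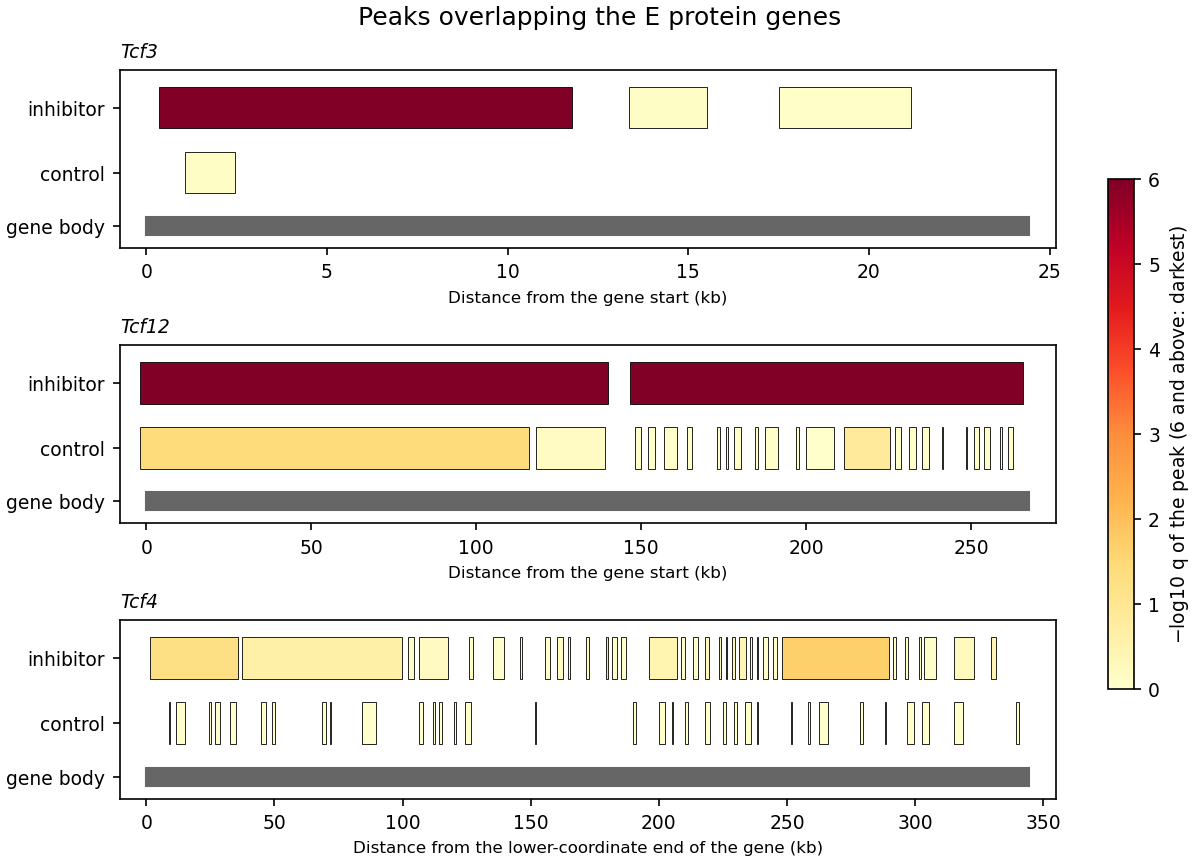
Peaks on the 3 E protein genes in the inhibitor (upper) and control (lower) lists, by distance in kb from the gene start, or for Tcf4 from its lower-coordinate end; color is the authors' −log10 q and the grey bar is the gene body. Tcf12 carries 2 inhibitor peaks and 23 control peaks, of which the 118.1 kb one starts at the same end of the gene, whereas Tcf4 is broken up in both lists.

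Each of the 3 Id genes had 1 inhibitor peak, and only Id2 had a control peak. Id2, the Id gene of innate lymphoid cells (chromosome 12, 25093799 to 25096092, minus strand, 2.29 kb), was covered over 99.9% with the inhibitor and 84.6% with DMSO. The inhibitor peak spanned 3.03 kb (25093061 to 25096090), with a fold of 2.94 and a −log10 q of 5.92, above 94.0% of its list. The control peak spanned 1.94 kb (25094088 to 25096028), with a fold of 2.101 and a −log10 q of 0.931, above 99.2% of its own list but short of q = 0.05. Both peaks began just inside the start site, 2 bp in the inhibitor list and 64 bp in the control list, and the inhibitor peak ran past the far end of the gene. Id2 was the one member whose coverage differed by less than 25 points with all peaks (15.3 points). From peaks at q of 0.05 or below its coverage was 99.9% with the inhibitor and 0% with DMSO.

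Id3, the Id gene raised by receptor signals in thymocytes (chromosome 4, 136143822 to 136145392, plus strand, 1.57 kb), was covered over 100% with the inhibitor and 0% with DMSO. Its inhibitor peak spanned 2.63 kb (136143099 to 136145731), with a fold of 1.96 and a −log10 q of 1.34, just past the threshold. The nearest control peak lay 13.8 kb away, at a −log10 q of 0.00127. Id1, a target gene of BMP signals (chromosome 2, 152736251 to 152737410, 1.16 kb), was covered over 80.3% with the inhibitor and 0% with DMSO. Its inhibitor peak spanned 3996 bp (152736480 to 152740475), with a fold of 2.00 and a −log10 q of 1.26, just short of the threshold, and 23.3% of that peak lay within the gene. The nearest control peak was 19.5 kb away, at a −log10 q of 0. The placing of Id3 and Id1 on either side of q = 0.05 thus rests on values of 1.34 and 1.26.

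The RefSeq start windows of Id2 and Id3 are shown because their peaks meet the start site in different ways. The window of Id2 had 48 of 300 bases under the inhibitor peak and 0 under a control peak, whereas that of Id3 lay wholly under its inhibitor peak, which began 723 bp before the start site. Capitals mark the E-box.
Id2, minus strand, chr12:25096043-25096342: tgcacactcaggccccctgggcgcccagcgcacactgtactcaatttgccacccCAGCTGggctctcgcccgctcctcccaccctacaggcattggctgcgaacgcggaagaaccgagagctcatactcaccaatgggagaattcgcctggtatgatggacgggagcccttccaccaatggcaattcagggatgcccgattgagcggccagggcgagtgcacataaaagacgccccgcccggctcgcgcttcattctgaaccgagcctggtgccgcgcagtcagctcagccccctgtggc
Id3, plus strand, chr4:136143572-136143871: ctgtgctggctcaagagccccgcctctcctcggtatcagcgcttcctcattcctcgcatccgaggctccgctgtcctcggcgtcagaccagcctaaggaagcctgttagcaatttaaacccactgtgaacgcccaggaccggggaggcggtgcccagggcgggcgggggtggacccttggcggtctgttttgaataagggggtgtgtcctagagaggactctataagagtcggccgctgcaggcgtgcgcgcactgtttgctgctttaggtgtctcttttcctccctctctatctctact
The window of Id2 held 1 E-box, CAGCTG, and that of Id3 none. Start windows were matched for 4 of the 6 members. None of the 6 windows of these 4 genes held CACCTG on either strand, which 20.2% of all start windows did. No match says only that these letters are not in this window.

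**Figure D3:**
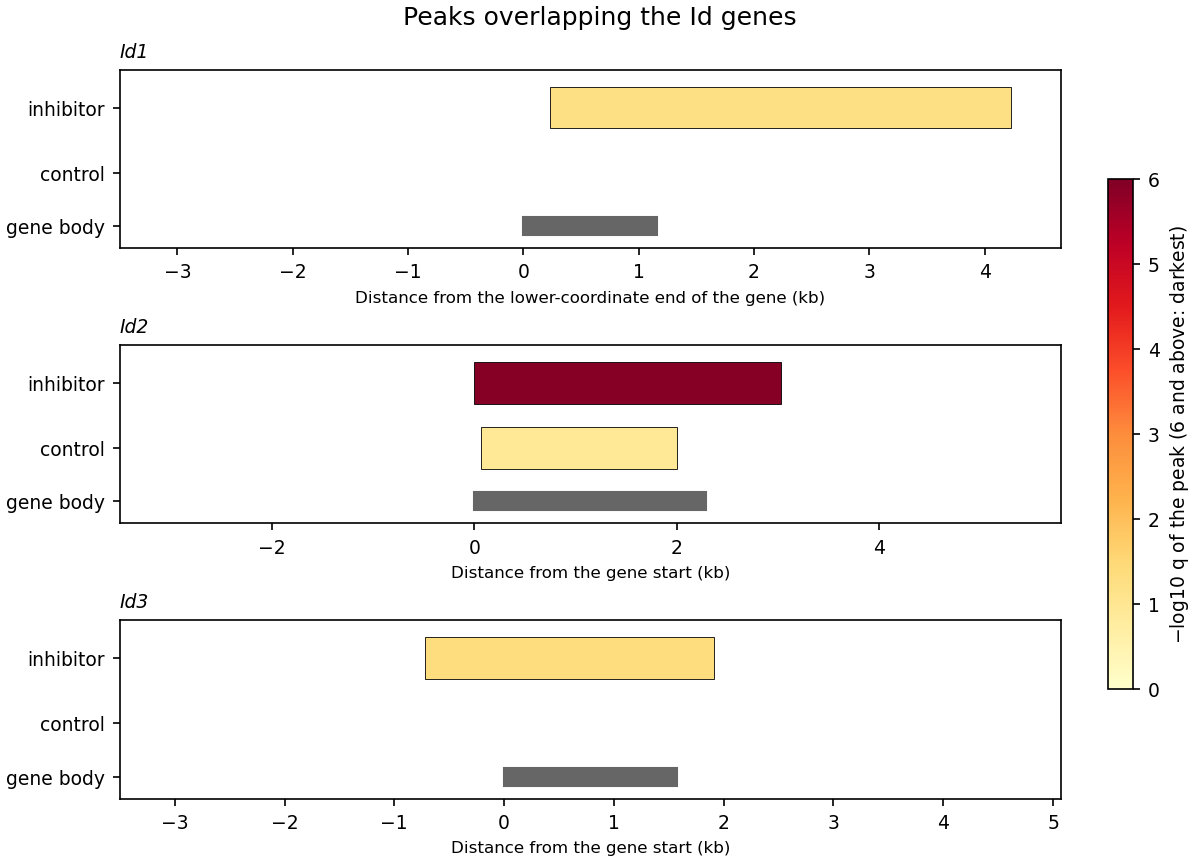
Peaks on the 3 Id genes in the inhibitor (upper) and control (lower) lists, by distance in kb from the gene start, or for Id1 from its lower-coordinate end; color is the authors' −log10 q and the grey bar is the gene body. Only Id2 has a control peak, and its inhibitor peak has the highest −log10 q of the 3 (5.92).

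The gaps around the Id gene peaks varied, and wide gaps were not particular to the Id genes. In the inhibitor list the gap to the next peak on either side was 10.5 and 24.1 kb at Id1. It was 39.3 and 1219 kb at Id2, and 89.4 and 25.5 kb at Id3. At the E protein genes it was 143.2 and 103.3 kb for Tcf4, 2.35 and 111.3 kb for Tcf3, and 0.831 and 2.14 kb for Tcf12. The usual gap over all coding genes was not computed. In the 100 kb flanks of Id1 the inhibitor list covered 40.2% on the side of H13 and 59.2% on the side of Bcl2l1, a survival gene, against 6.43% and 15.5% on these sides in the control list. The 59.2% includes the part of the Id1 peak that runs past the gene. Without that peak, inhibitor peaks at q of at most 0.05 covered 54.7% of that flank. The flank of Id2 toward higher coordinates holds no coding gene and had 0 inhibitor peaks and 6 control peaks, none with q of at most 0.05. At Id3 the next inhibitor peaks lay on Rpl11, a ribosomal protein gene (−log10 q 14.9), and on E2f2, a cell cycle transcription factor gene (−log10 q 4.03). Id4, the remaining Id gene (chromosome 13, 48261116 to 48266028), had no peak in either list, and its nearest inhibitor peak lay 233.5 kb away.

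Ordered by coverage, the inhibitor list ran from Tcf4 (62.0%) through Tcf3 (70.6%), Id1 (80.3%), Tcf12 (96.8%) and Id2 (99.9%) to Id3 (100%). The control list ran from Id1 and Id3 (0% each) through Tcf3 (5.71%), Tcf4 (16.2%) and Tcf12 (71.2%) to Id2 (84.6%). Ordered by the strongest peak, the inhibitor list ran from Id1 (−log10 q 1.26) through Id3, Tcf4, Id2 (5.92) and Tcf3 (6.08) to Tcf12 (21.9). No spread between replicates is available to separate neighbours in these orders. A wide peak was not always a strong one: the 3.03 kb peak of Id2 had a −log10 q of 5.92 and the 62.4 kb peak of Tcf4 0.639.

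**Figure D4:**
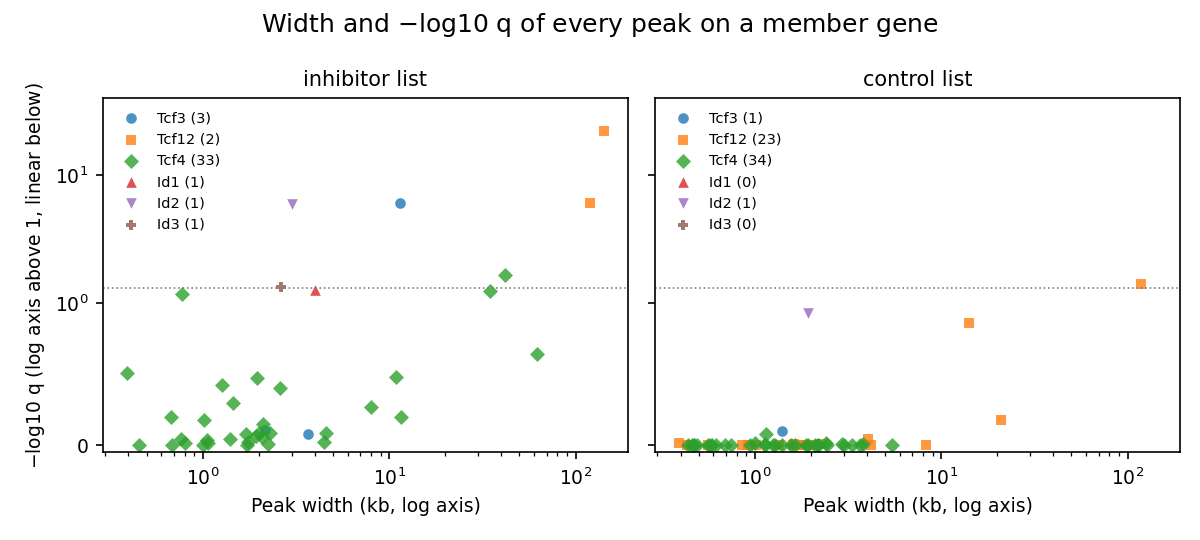
Width in kb (log axis) against the authors' −log10 q (log above 1, linear below) of each of the 41 inhibitor and 59 control peaks on the members; the dotted line is q = 0.05 and numbers in the legend count peaks. In the inhibitor list 6 peaks lie above the line, and in the control list only the 118.1 kb peak of Tcf12 does.

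Genes that act with E proteins were described from 6 lists. Of 8 coactivators and corepressors, 8 were covered over at least 50% with the inhibitor (26.1% of all coding genes) and 0 with DMSO (5.47%). All 8 differed by at least 25 points (30.1% of all coding genes). Kat2a, a histone acetyltransferase gene, was covered over 100% with the inhibitor and 0% with DMSO, and Hdac1, a deacetylase gene, over 100% with the inhibitor and 28.1% with DMSO. Ncor1, a corepressor gene that overlaps another coding gene, was covered over 83.9% with the inhibitor and 30.5% with DMSO. The histone acetyltransferase genes Ep300 and Crebbp, whose products E proteins recruit, were covered over 86.9% and 89.7% with the inhibitor and over 40.8% and 41.6% with DMSO.

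Among 11 helix-loop-helix partners and adaptors of blood cells, 6 reached 50% with the inhibitor (26.1% of all coding genes) and 1 with DMSO (5.47%), and 6 were higher with the inhibitor by at least 25 points (30.1%). A control count of 1 in 11 is near its background. The largest differences were at Lyl1, a partner of E proteins that overlaps another coding gene (91.7% with the inhibitor, 0% with DMSO), at Cbfa2t3, a corepressor (88.6% with the inhibitor, 19.1% with DMSO), and at Ssbp3, a cofactor of the adaptor LDB1 (92.3% with the inhibitor, 29.3% with DMSO). Ldb1 itself was covered over 93.7% with the inhibitor and 52.9% with DMSO. The leukaemia-linked partners and adaptors Tal1, Tal2 and Lmo2 had no inhibitor peak and at most 7.63% control coverage.

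Of 12 E protein targets described in early T cells, 9 reached 50% with the inhibitor (26.1% of all coding genes) and 6 with DMSO (5.47%), and 7 were higher with the inhibitor by at least 25 points (30.1%). Ptcra, Rag1, Rag2 and Notch1 of this list are also among the DN3 markers above, so its counts partly repeat those of the markers. From peaks at q of 0.05 or below, 9 reached 50% with the inhibitor (19.6% of all coding genes) and 3 with DMSO (1.33%). Gfi1, a transcriptional repressor, was covered over 100% with the inhibitor and 30.6% with DMSO, and Socs3, an inhibitor of cytokine signals, over 100% with the inhibitor and 38.9% with DMSO. The third largest difference was that of Notch1, the receptor gene of T lineage entry (57.4 points). Cxcr4, a chemokine receptor gene, was covered over 100% in both lists. Cd4, which is turned on after the DN3 stage, had no inhibitor peak and 7.69% control coverage.

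Of 11 inducers of Id genes, 5 reached 50% with the inhibitor (26.1% of all coding genes) and 1 with DMSO (5.47%), which is near its background, and 5 were higher with the inhibitor by at least 25 points (30.1%). Smad5, a mediator of BMP signals, was covered over 84.7% with the inhibitor and 24.6% with DMSO. Smad1, another mediator, was covered over 59.0% with the inhibitor and 4.51% with DMSO, by peaks with q above 0.05 alone. Tgfbr2, a receptor of TGF-β, was covered over 73.2% with the inhibitor and 26.4% with DMSO. The genes Egr1 and Egr3, which link receptor signals to Id3, had no peak in either list. Egr2 was covered over 0.712% with the inhibitor, at q of at most 0.05, and 0% with DMSO. The BMP receptor gene Bmpr1a had no inhibitor peak and 5.42% control coverage. Of 5 competitors for E-boxes, 3 reached 50% with the inhibitor (26.1% of all coding genes) and 0 with DMSO (5.47%). They were Zeb1 (89.1% with the inhibitor, 44.6% with DMSO), Zeb2 (72.4% with the inhibitor, 37.0% with DMSO) and Snai3 (63.0% with the inhibitor, 8.57% with DMSO). Of these, Zeb1 alone was covered over at least 50% by inhibitor peaks at q of at most 0.05, and 1 of 5 is near the 19.6% of all coding genes.

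Of 16 tissue-restricted helix-loop-helix partners that act outside blood, such as Myod1 of muscle, 0 had an inhibitor peak, against 51.4% of all coding genes with any covered base. That share is over genes of every length, whereas all partners but Twist2 and Tcf15 are under 5 kb. Coding genes under 5 kb had a median coverage of 0% in both lists. In neither list did 13 of the 16 have a peak, and the matching share of all coding genes was not computed. Twist1, a mesodermal factor, was covered over 0% with the inhibitor and 100% with DMSO, and Atoh1, a neural factor, over 0% with the inhibitor and 47.6% with DMSO. Neither held a control peak with q of at most 0.05.

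**Figure D5:**
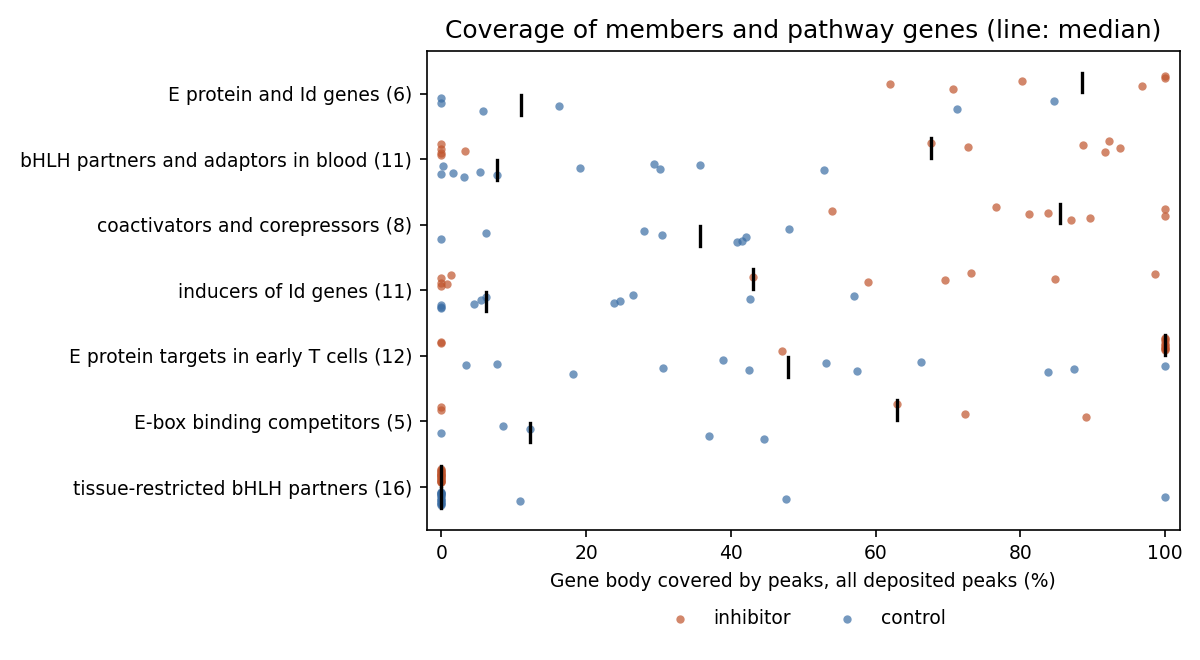
Percent of the gene body under peaks (horizontal axis, all deposited peaks) for each member and for each gene of the 6 pathway lists, with inhibitor points above control points; black lines are medians and numbers in brackets count genes. The members have medians of 88.5% (inhibitor) and 10.97% (control), and none of the 16 tissue-restricted partners has inhibitor coverage.

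The genes whose coverage was most like that of each member were found by the distance over 4 values, the coverage in each of the 2 lists with all peaks and with peaks at q of at most 0.05. They were sought among genes of 0.5 to 2 times its length that overlap no other coding gene. Tcf12 was closest to Fut8, a fucosyltransferase gene (5.64 points), and Rapgef2 (12.2 points). Tcf3 was closest to Eif2s3x, a translation initiation factor gene (3.35 points), and Ubl7 (3.48 points), and Tcf4 to Clasp2 (8.90 points) and Tnik (10.6 points). Id2 was close to the ribosomal protein gene Rpl37 (0.879 points), and Id1 was closest to Dmac1 (1.69 points) and Olfr547 (2.60 points). Id3 shared its values with 84 genes at a distance of 0, and B3galt4 and Fam89b were nearest in length. With 2 libraries this likeness describes coverage alone.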

How the data were processed

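H3K79me2 ChIP-seq was deposited as 2 broad peak lists, 1 per ChIP library; the 2 inputs were not used. Per the submitters' processing notes BWA, MACS2 2.1.0 and mm10 were used, with no roles given; neither caller options nor the use of the input is stated in the sources used here. A deposited peak carries a fold enrichment (a ratio to background), −log10 p, −log10 q and a deposited score, the whole part of 10 times −log10 q. The lowest −log10 p was 1.00 in both deposited lists. The read depth is unknown, so no level per read or interval was computed.

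Touching peaks were merged and intersected with RefSeq gene bodies of GRCm38.p6 (the assembly of mm10) in Python 3.11.15 (numpy 2.4.6, pandas 2.3.3). Strand came from the RefSeq start windows, which gave it for 4 of 6 members. A gene counted as covered at 50% or more, and differences of at least 25 points were counted; no test was made. The coverage function was tested on simulated peaks. Members, lists and thresholds were chosen with earlier results of these data known. Besides the 6 members and Id4, genes named were up to 3 per list and direction with the largest difference of at least 25 points, and the 2 most alike per member, of which 1 is not reported here; others named from the lists were chosen after their values were seen.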

Additional observations from a re-analysis of the deposited data

How the results depend on the processing

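The first 2 of the 3 counts over the 6 genes were recomputed under 8 alternatives and the third under 6, in the order covered over at least 50% in the inhibitor list (6), in the control list (2), and with coverage higher by at least 25 points with the inhibitor (5). With q of at most 0.05 the first 2 were 3 and 0, and the third was 4 (all coding genes: 19.6%, 1.33% and 26.3%). With −log10 q of at least 5 they were 2, 0 and 3 (all coding genes: 11.0%, 0.557% and 13.2%), and with fold enrichment of at least 3 they were 1, 0 and 1 (10.6%, 0.461% and 12.9%). Only Tcf12 held peaks at that fold. With gene bodies widened by 2 kb they were 4, 1 and 5 (23.9%, 3.64% and 29.4%). When any covered base was enough the first 2 were 6 and 4 (51.4% and 55.3%), so that this control count is near its background, and at 80% of the body they were 4 and 1 (14.8% and 1.49%). Merging peaks within 1 kb changed none of the 3 counts. With the first 5 kb of each gene (for Tcf4, without a known strand, the better covered 5 kb end of each list) they were 6, 2 and 4 (36.0%, 13.1% and 32.7%), and Tcf12 differed by 0 points. Over 36 differences of single genes under 6 alternatives, 0 turned negative, 10 were 0 and 12 crossed 25 points. These moves follow from the removal of weak peaks and the choice of window. No paired analysis was possible because each condition has 1 library, and no replicate could be left out. The unknown depth of the 2 libraries limits every difference between the lists.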
